A study of Homo sapiens with 10 samples.

Results

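The 4 control arrays of a gene silencing study show which genes HEK-293 cells express at high and low signal when no gene is targeted. HEK-293 is a line of human embryonic kidney cells that were transformed with adenovirus DNA. The 4 were chosen by their labels, as the arrays of cells given a scrambled siRNA, and they stand among 10 arrays in all. Both arrays at 10 nM and both at 100 nM were harvested 48 hours after transfection with RNAiMax, from cells grown in low glucose DMEM with fetal bovine serum. The control was a commercial negative control duplex (siScramble, Mission Negative control SIC-002) whose sequence its maker does not disclose. The other 6 arrays, 2 per group, carried LOC440173 siRNA 1 or siRNA 2 at 10 nM, or PAXIP1-AS1 siRNA at 100 nM. Every array came from transfected cells, and cells without transfection were not analysed here. Each control dose served 1 of the silencing experiments, so dose and experiment cannot be told apart. The labels call the arrays of a group biological replicates and do not say whether these were separate cultures, so p-values measure only the spread between those arrays.

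HEK-293 cells came from embryonic kidney but are known for carrying intermediate filaments of neurons and transcription factors of the embryonic kidney and brain. A dividing cell line spends much of its messenger RNA on ribosomes, protein folding, RNA processing and energy supply. Receptors for odours, skin keratins and the interferon genes are examples of families that most cell types keep silent.

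Total RNA was turned into biotinylated cRNA and hybridised to Affymetrix arrays, and the deposited values are log2 signals for 32321 probe sets. One probe set stood for each of 18404 genes. The mean value of a gene over the 4 control arrays ran from 2.72 to 13.77, with a median of 7.69. A percentile below is the place of a gene in that order, where 100 is the brightest. Probe sets differ in length and binding, so the order is of signal and not of transcript amount. With no call of detection at hand, the 95th percentile of 359 olfactory receptor genes, at 6.07, served as a reference for dim probe sets, and 13560 genes (73.7%) lay above it. Replicate arrays correlated across genes with r = 0.9966 at 10 nM and 0.9979 at 100 nM, and pairs of arrays from different doses with r from 0.9966 to 0.9984. Genes are not independent replicates, and these correlations describe the arrays. LINC02893, the current name of the silenced LOC440173, read 8.48 and 8.60 at 10 nM and 8.50 and 8.60 at 100 nM.

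The upstream sequences of some bright and dim genes show a contrast in CG dinucleotides, which only some families share. Each line gives the 100 bases before the first listed transcription start, 5′ to 3′, from RefSeq on GRCh38.p14, with every CG in capitals. RPS28 (chr19:8321396-8321495, plus strand) is the brightest ribosomal protein gene and H1-4 (chr6:26156229-26156328, plus strand) the brightest histone gene. VIM (chr10:17228141-17228240, plus strand), EN2 (chr7:155458029-155458128, plus strand) and PAX2 (chr10:100735296-100735395, plus strand) are markers of HEK-293. OR5K1 (chr3:98463101-98463200, plus strand) is the dimmest olfactory receptor gene and KRTAP3-3 (chr17:40994165-40994264, minus strand) the dimmest gene of a keratin-associated protein.
RPS28: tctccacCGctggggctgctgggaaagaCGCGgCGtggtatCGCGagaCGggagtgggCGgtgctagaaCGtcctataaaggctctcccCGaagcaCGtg
H1-4: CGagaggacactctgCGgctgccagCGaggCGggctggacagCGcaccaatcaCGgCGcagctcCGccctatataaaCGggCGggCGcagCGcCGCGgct
VIM: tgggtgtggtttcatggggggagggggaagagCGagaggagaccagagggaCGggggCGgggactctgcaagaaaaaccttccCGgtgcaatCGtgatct
EN2: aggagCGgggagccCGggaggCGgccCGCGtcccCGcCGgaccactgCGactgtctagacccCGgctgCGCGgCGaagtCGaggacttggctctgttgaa
PAX2: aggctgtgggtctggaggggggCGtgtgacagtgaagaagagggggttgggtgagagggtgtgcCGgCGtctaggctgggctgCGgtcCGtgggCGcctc
OR5K1: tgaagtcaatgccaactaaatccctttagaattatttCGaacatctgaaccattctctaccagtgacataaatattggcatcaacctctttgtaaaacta
KRTAP3-3: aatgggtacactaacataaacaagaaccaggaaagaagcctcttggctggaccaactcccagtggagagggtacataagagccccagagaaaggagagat
The windows of RPS28 and H1-4 hold 11 and 14 CG pairs, and that of EN2 holds 13. The windows of VIM and PAX2 hold 5 and 6, although VIM is at percentile 96.5 and PAX2 at 37.6. OR5K1 has 1 and KRTAP3-3 has 0. These windows lie upstream of the genes, and PAX2 has 2 listed starts, of which the first was taken.

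The markers given for HEK-293 were bright in these arrays except PAX2. VIM encodes vimentin, the intermediate filament of mesenchymal and many cultured cells, and read 11.32 and 11.43 at 10 nM and 11.35 and 11.36 at 100 nM, at percentile 96.5. CA2, a cytosolic carbonic anhydrase, read 11.25 and 11.25 at 10 nM and 11.17 and 11.11 at 100 nM, at percentile 95.7. The light and medium neurofilament genes came next in this set.

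NEFL read 10.30 and 10.20 at 10 nM and 10.16 and 10.27 at 100 nM. NEFM read 10.21 and 10.25 at 10 nM and 10.28 and 10.18 at 100 nM. Both lay near the 88th percentile (87.9 for NEFL and 87.8 for NEFM), and the doses overlapped for each. EN2, a homeobox gene of the midbrain and hindbrain boundary, read 9.82 and 9.73 at 10 nM and 9.73 and 9.68 at 100 nM, at percentile 81.7. PAX2, a transcription factor of the early kidney, read 6.84 and 6.74 at 10 nM and 6.89 and 6.80 at 100 nM. This is percentile 37.6, above the olfactory receptor reference but below the same reference taken from the bitter taste receptors (8.32) or the keratin-associated proteins (8.76). So 5 of the 6 markers lay above the median gene and PAX2 lay below it.

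The SDs of these 6 means over 4 arrays were small against the gaps between most of them. VIM stood at 11.37 ± 0.0467 (SD, n = 4) and PAX2 at 6.82 ± 0.0648 (SD, n = 4). NEFL and NEFM both stood at 10.23. These SDs measure the spread between arrays of both doses and not differences in binding between probe sets, so they do not compare transcript amounts.

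Neuron markers ran from bright to dim, with most in between. Of 22 listed neuron markers 21 were measured, 14 lay above the reference and their median was at percentile 37.4. UCHL1, a ubiquitin hydrolase abundant in neurons, read 11.13 ± 0.0159 (SD, n = 4), and INA, the neurofilament partner alpha-internexin, read 10.99 ± 0.0449 (SD, n = 4). Both lay above the 94th percentile (95.3 and 94.5), brighter in signal than NEFL and NEFM. SYT1 and SYP, of synaptic vesicles, read 8.66 and 7.87, the adhesion molecule gene NCAM1 8.49, and RBFOX3, a nuclear marker of mature neurons, 6.75. MAP2 at 4.89, DCX at 4.82 and ELAVL4 at 4.17, genes of dendrites, migrating neurons and neuronal RNA binding, lay below the reference. The secretory granule genes CHGA and CHGB were also below it, at 5.52 and 5.57.

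Genes of neural progenitors held a middle place, with a median at percentile 47.5 over 15 of 16 listed genes. ZIC2, a zinc finger factor of the dorsal neural tube, was the brightest at 11.08 ± 0.0848 (SD, n = 4). EN2 followed, and the RNA-binding protein gene MSI1 read 8.91. PAX6 at 8.71 and SOX2 at 8.15 lay above the median gene, while NES, which encodes nestin, read 6.62 and FABP7 read 4.77, below the reference.

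Kidney development genes were brighter than genes of the finished nephron. EYA1, a coactivator in nephron progenitors, read 10.34 and 10.44 at 10 nM and 10.39 and 10.47 at 100 nM. SIX2, a factor that maintains those progenitors, read 9.83 and 9.61 at 10 nM and 9.72 and 9.73 at 100 nM. HOXD11 at 9.72, CITED1 at 9.57 and SALL1 at 9.12 were also above the 72nd percentile (81.4, 79.3 and 72.2). PAX8, LHX1, WNT4 and WNT11 lay between 6.63 and 7.09, under the median gene. The 14 measured genes of 18 listed had a median at percentile 44.1, and 6 lay above the median gene.

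Markers of the adult nephron lay mostly in the dim part of the order. For 12 of 15 proximal tubule genes the median was at percentile 23.0, and the endocytic receptor LRP2 was the only one above the median gene, at 8.36 ± 0.0512 (SD, n = 4). Of the 12, 5 lay above the reference, among them the transporters SLC13A3 at 7.58, SLC5A2 at 6.77 and SLC34A1 at 6.66. The LRP2 partner CUBN read 5.45, and the transporters SLC22A8, SLC5A12 and SLC3A1 were also below the reference. The 14 measured genes of 16 for the loop of Henle, distal tubule and collecting duct had a median at percentile 28.8, 8 lay above the reference and none above the median gene, and the sodium transporter SLC12A1 read 4.21. Of 14 podocyte genes 11 were measured and 5 lay above the reference, with PODXL, the surface sialomucin podocalyxin, at 9.54 ± 0.0261 (SD, n = 4), WT1 at 7.82 and the nephrin gene NPHS1 at 5.97. In a culture measured in bulk, fewer cells of a type and less RNA per cell cannot be told apart.

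SNAI2 and CDH2 of the mesenchymal list were brighter than CDH1 and EPCAM of the epithelial list, but the lists overlapped in signal. THY1 of the mesenchymal list read 5.65, and ESRP2 of the epithelial list read 8.40. SNAI2, the repressor also called Slug, read 11.72 and 11.81 at 10 nM and 11.79 and 11.83 at 100 nM, and CDH2, N-cadherin, read 11.11 ± 0.027 (SD, n = 4). CDH1, E-cadherin, read 7.05 ± 0.0405 (SD, n = 4), at percentile 41.2, and EPCAM read 6.02, just under the reference. The simple epithelial keratin KRT18 was at 9.24, whereas its partner KRT8 was at 7.38. Matrix genes of the same mesenchymal list ran from FN1, fibronectin, at 9.53 and COL1A1 at 7.98 to DCN at 3.76 and POSTN at 3.73. The medians of the mesenchymal and epithelial lists were at percentiles 45.8 and 27.8. Above the reference lay 13 of 18 and 9 of 14 measured genes, against 73.7% of all genes.

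The lowest medians were those of germ cell, hepatocyte, blood and endothelial markers. None of 12 germ cell genes lay above the reference, and their median was at percentile 11.1. Hepatocyte, blood and endothelial lists had medians at percentiles 12.6, 19.0 and 19.5, and PTPRC, the leukocyte common antigen, read 3.57 ± 0.0558 (SD, n = 4), while ALB, albumin, read 4.29. Keratinocyte and muscle lists were at 24.5 and 25.5, among the values of the nephron lists, and the adrenal list at 28.8 with TH, the first enzyme of catecholamine synthesis, its brightest member at 6.81. The adrenal list had 0 genes above the median gene. LIN28B and DNMT3B, at 9.39 and 8.58, led the pluripotency list, whose DPPA4 and ZFP42 read 4.56 and 3.89. The counts above the reference depend on it, and 73.7% of all genes lay above it. With the keratin-associated proteins as reference, the count over all 18404 genes fell from 13560 to 6199. The neuron count fell from 14 to 4 of 21 genes and the kidney development count from 13 to 5 of 14. The counts of adrenal, blood, endothelium, hepatocyte, germ cell, keratinocyte and muscle were then 0. Those of the proximal tubule and of the loop of Henle, distal tubule and collecting duct were 0 as well.

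**Figure D1:**
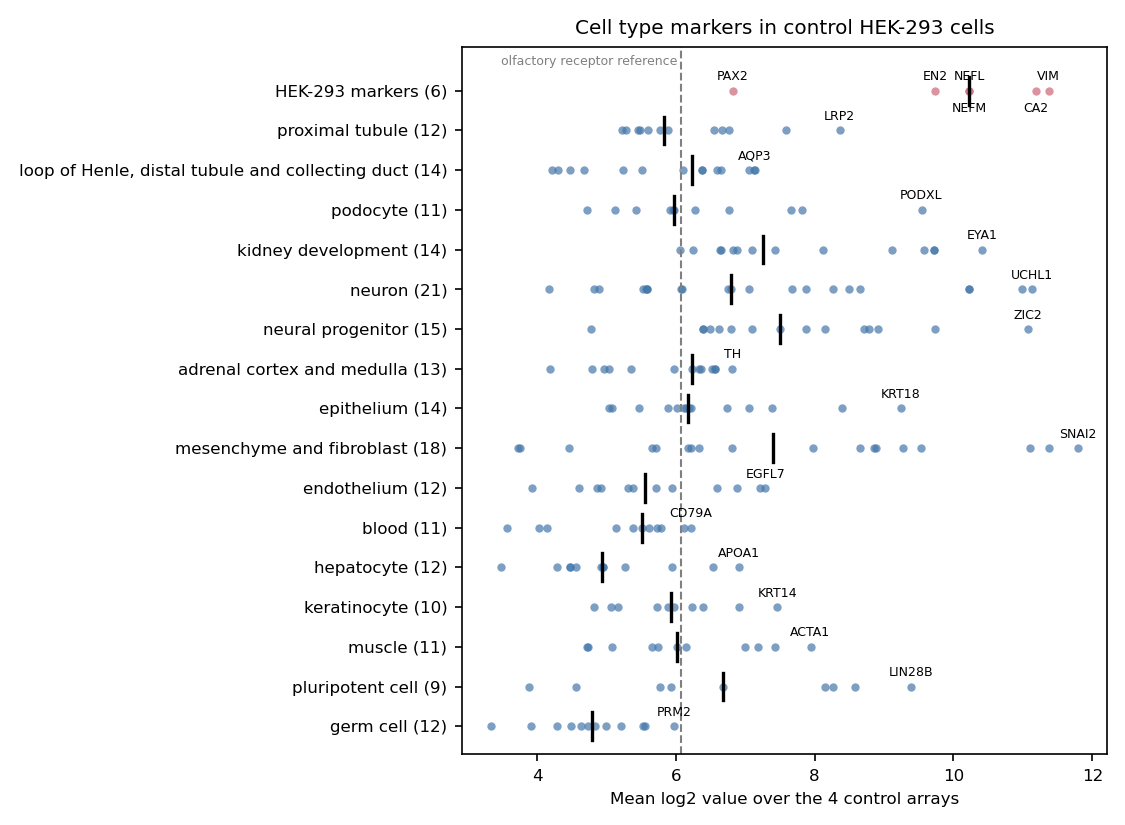
Mean log2 value over the 4 control arrays (x axis) of each measured marker (points) in 17 lists, with the list median as a vertical bar and the number of measured genes in parentheses; the dashed line is the olfactory receptor reference at 6.07. The HEK-293 markers other than PAX2 lie between 9.74 and 11.37, and the germ cell genes all lie left of the line.

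HOX genes, which set position along the body axis, ranged widely in signal, and posterior members were among both the brightest and the dimmest. HOXB9 read 11.79 and 11.71 at 10 nM and 11.68 and 11.69 at 100 nM, and HOXD10 read 11.69 and 11.64 at 10 nM and 11.57 and 11.63 at 100 nM. HOXD13 at 10.51 and HOXC9 at 10.06 followed, and the anterior HOXA2 and HOXB2 read 9.46 and 9.31. The dimmest were also posterior, HOXC12 at 5.91 and HOXD12, between neighbours HOXD11 and HOXD13 in the cluster, at 4.62. Of 27 measured HOX genes 25 lay above the reference, and the median was at percentile 58.8.

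Many of the brightest probe sets belonged to protein synthesis, folding and the cytoskeleton. RPS28, a small ribosomal subunit protein, read 13.78, 13.77, 13.77 and 13.76 over the 4 arrays, and RPL18 of the large subunit read 13.73. Among the 20 brightest genes 7 encoded ribosomal proteins, among the 100 brightest 25, and among the 500 brightest 41. The chaperone HSPA8 at 13.71, the glycolytic enzyme GAPDH at 13.53, ACTG1, cytoplasmic gamma-actin, at 13.46, TUBB, beta-tubulin, at 13.44 and EEF1A1, which brings aminoacyl-tRNA to the ribosome, at 13.37 were all among the first 20.

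Several of the remaining 20 were less usual. The linker histone H1-4 read 13.76 ± 0.016 (SD, n = 4), and the pseudogene RPL13AP5 read 13.72 ± 0.0358 (SD, n = 4). Histone genes and ribosomal pseudogenes resemble their copies in sequence, so their signals are uncertain for the single gene. FAF2, a ubiquitin adaptor of the endoplasmic reticulum, read 13.71 and 13.79 at 10 nM and 13.76 and 13.77 at 100 nM. PLCG2, a phospholipase C best known from blood cells, read 13.45 ± 0.0275 (SD, n = 4) although the blood markers were dim. FAF2 and PLCG2 had 2 probe sets each, and these levels rest on the brighter one over all 10 arrays. Where the probes of FAF2 and PLCG2 lie was not checked. RNU2-1, the spliceosomal U2 RNA, was at 13.44. DAD1 at 13.51, COX6A1 at 13.47 and PTMA at 13.4 were also among the 20.

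Cytosolic ribosomal proteins formed the brightest family, with a median at percentile 98.9 over 64 genes. Of these 51 lay among the brightest 10% of genes. Lower in the order were variants with tissue-limited roles and some common members. RPL3L, the form of striated muscle, was dimmest at 6.79 ± 0.265 (SD, n = 4), and RPL10L and RPL39L read 7.38 and 7.60. RPL22 itself read 7.10 and its relative RPL22L1 read 7.60.

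Other housekeeping machines followed in order of their medians. The 9 chaperonin subunits, which fold actin and tubulin, had a median at 96.7 and ranged from TCP1 at 12.68 to CCT6B, a testis form, at 4.81 ± 0.143 (SD, n = 4). Splicing factors of the SRSF family (12 genes) and the hnRNP proteins (20 genes) had medians at 94.7 and 94.6, led by SRSF1 at 12.32 and HNRNPAB at 12.74. ATP synthase subunits were at 93.6, with ATP5MC3 dimmest at 6.90. Proteasome subunits were at 92.1, where PSMA8, a testis form, read 3.49 while PSMA4 read 12.54. Translation initiation factors were at 90.8, led by EIF1 at 13.04, and mitochondrial ribosomal proteins at 83.6, led by MRPL37 at 12.30. Their dimmest members were EIF1AY at 3.72 and MRPS18C at 6.71. These families were defined by gene symbol alone and may hold a few antisense, pseudogene or unrelated symbols.

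Families with both constitutive and cell-type members spread widely. Among 28 tubulin symbols, with TUBGCP genes of the gamma-tubulin complex and pseudogenes included, the median was at percentile 69.6. At the bright end stood TUBB4B at 12.93 and TUBG1, the gamma-tubulin of microtubule nucleation, at 12.84. At the dim end stood TUBB1, the platelet form, at 5.28 and TUBAL3 at 4.21. The 72 histone symbols ran from H1-4 to H2AC14 at 3.15, around a median at 56.2. Zinc finger ZNF genes (494) and solute carriers (376) had medians at 48.8 and 46.0. Their brightest members were ZNF626 at 12.14 and SLC25A5, a mitochondrial ADP/ATP carrier, at 12.85.

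Families of immune defence and of the sense of smell were among the dimmest. All 12 type I interferon genes lay among the dimmest 10% of genes, from IFNA6 at 4.57 ± 0.214 (SD, n = 4) to IFNA21 at 3.31, with a median at percentile 3.8. Beta-defensins (24 genes) were at 6.4, interleukins (44) at 12.8 and chemokines (34) at 20.4, the last above protocadherins, microRNAs, MAGE genes and cytochromes P450. Olfactory receptors, by which the reference was set, had a median at 9.5, and 193 of 359 lay among the dimmest 10%. OR2H2 was their brightest at 8.64.

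Some dim families had single bright members. Protocadherins, cell adhesion proteins of neurons, had a median at 14 and 15 of 42 genes among the dimmest 10%, yet PCDH10 read 9.68 ± 0.0168 (SD, n = 4). Among 23 claudins of tight junctions (median 23.8) CLDN12 read 10.56. Among 53 cytochromes P450 (median 20.1) CYP51A1, the lanosterol demethylase of cholesterol synthesis, read 10.64 and the liver enzyme CYP3A4 read 3.48. Among 23 MAGE genes (median 19.2) MAGED1 read 11.39 and MAGEC2, a testis and tumour antigen, read 4.04.

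Across all 143 symbol stems with at least 15 genes, RPL had the highest median (94.5), followed by EIF (90.8), NUP of the nuclear pore (90.4) and RPS (88.5). The lowest medians belonged to DEFB (6.4), PCDHB (8.6) and OR (9.6).

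**Figure D2:**
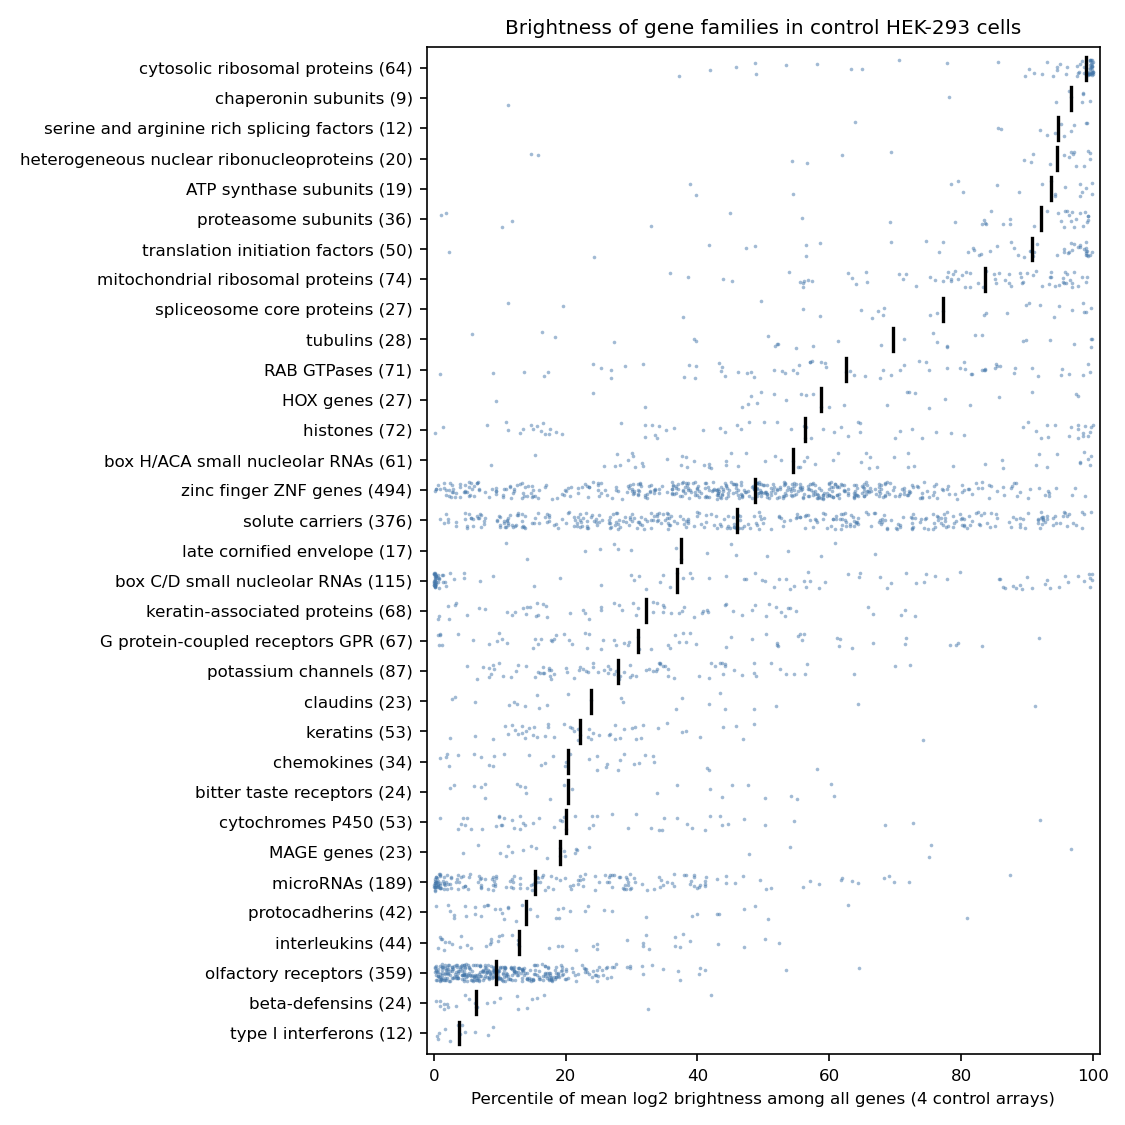
Percentile of each gene's mean signal over the 4 control arrays (x axis, 100 is brightest) for the families described (y axis), 1 point per gene spread vertically for visibility, with the family median as a vertical bar and its number of genes in parentheses. The medians run from 98.9 for the cytosolic ribosomal proteins to 3.8 for the type I interferons.

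Small RNA genes split by locus. Box C/D small nucleolar RNAs, which guide ribose methylation of ribosomal RNA, had a median at percentile 36.9, but this joined very different groups. The 40 SNORD115 and SNORD116 copies, imprinted neuronal clusters, ran from 2.72 to 4.58 and 0 of them lay above the reference. The other 75 ran from 2.90 to 13.12 with a median of 8.26, and 65 lay above it. SNORD13 read 13.09 and 13.19 at 10 nM and 13.10 and 13.09 at 100 nM. Box H/ACA RNAs, guides of pseudouridylation, were at a median of 54.5 over 61 genes, led by SNORA71D at 12.88. The copies of a cluster resemble each other, so single copies are uncertain.

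MicroRNA genes were dim, with a median at percentile 15.4 over 189 symbols, host transcripts included. The host transcript MIR17HG, which carries a cluster linked to proliferation, was the brightest at 10.19 ± 0.0311 (SD, n = 4). The brightest symbols of single microRNAs were MIR221 at 8.96, MIR326 at 8.93, MIR218-1 at 8.88, MIR210 at 8.63 and MIR339 at 8.58. Whether their probe sets read the mature RNA, the hairpin or the host transcript was not tested. A RefSeq sequence was found for 164 of the 189. Their 8 listed mature sequences, both arms where RefSeq gives both, are shown 5′ to 3′ with the seed, bases 2 to 8, in capitals, because the seed sets which targets a microRNA can pair with.
hsa-miR-221-3p: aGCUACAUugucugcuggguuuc
hsa-miR-326: cCUCUGGGcccuuccuccag
hsa-miR-218-5p: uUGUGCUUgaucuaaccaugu
hsa-miR-218-1-3p: aUGGUUCCgucaagcaccaugg
hsa-miR-210-3p: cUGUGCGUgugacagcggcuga
hsa-miR-210-5p: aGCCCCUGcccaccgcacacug
hsa-miR-339-3p: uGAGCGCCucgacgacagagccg
hsa-miR-339-5p: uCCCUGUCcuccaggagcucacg
No seed is shared among the 8. MIR221 read 8.92 and 9.03 at 10 nM and 8.89 and 9.01 at 100 nM. MIR326 varied more, with 9.06 and 8.55 at 10 nM and 9.22 and 8.88 at 100 nM.

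Promoters of some families differed from those of all protein-coding genes in features that the ranking did not use. A promoter of 300 bases, from 250 before to 50 after the start, was found for 13766 of 16897 protein-coding genes (81.5%). The median ratio of observed to expected CG pairs was 0.91 in 53 cytosolic ribosomal protein promoters, 0.87 in 66 mitochondrial ones, 0.18 in 55 of keratin-associated proteins and 0.78 in all protein-coding genes. Not every bright family stood above that level, with proteasome subunits at 0.77 and tubulins at 0.78, and the dim protocadherins were at 0.63. Histones, the family of H1-4, were at 0.75. A ratio above 0.6 was found in 100.0% of the cytosolic ribosomal promoters, in 3.64% of those of keratin-associated proteins and in 68.4% of all. Of 10 equal classes of genes by brightness, the brightest had a median of 0.89 over its protein-coding genes and the next to dimmest 0.32.

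Start sites and motifs differed between bright families. A start at a C followed by 4 pyrimidines, the form of the terminal oligopyrimidine messengers whose translation is growth-regulated, was present in 34 of 53 cytosolic ribosomal promoters (64.2%), in 5 of 66 mitochondrial ones (7.58%), in 23.8% of 42 initiation factor promoters, in 0 of 31 proteasome promoters and in 4.64% of all. The motif CCGGAA on either strand, the core bound by ETS factors, stood in 56.6% of cytosolic and 56.1% of mitochondrial ribosomal promoters, against 23.5% of all. The letters TATAAA on the gene strand between 40 and 20 bases before the start stood in 50.8% of 63 histone and 43.6% of 55 keratin-associated promoters, against 3.39% of all. CCAAT on either strand stood in 87.3% of histone promoters, against 36.4% of all, and GGGCGG on either strand in 25.4%, against 60.7%.

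A match of letters is a description and not a binding site. For 4 of the 10 classes, the dimmest among them, and for olfactory receptors, type I interferons, keratins and HOX genes, under 80% of members had a promoter, so the check is void there. In the printed windows, TATAAA occurs in that position for RPS28 and H1-4 and for none of the others.

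**Figure D3:**
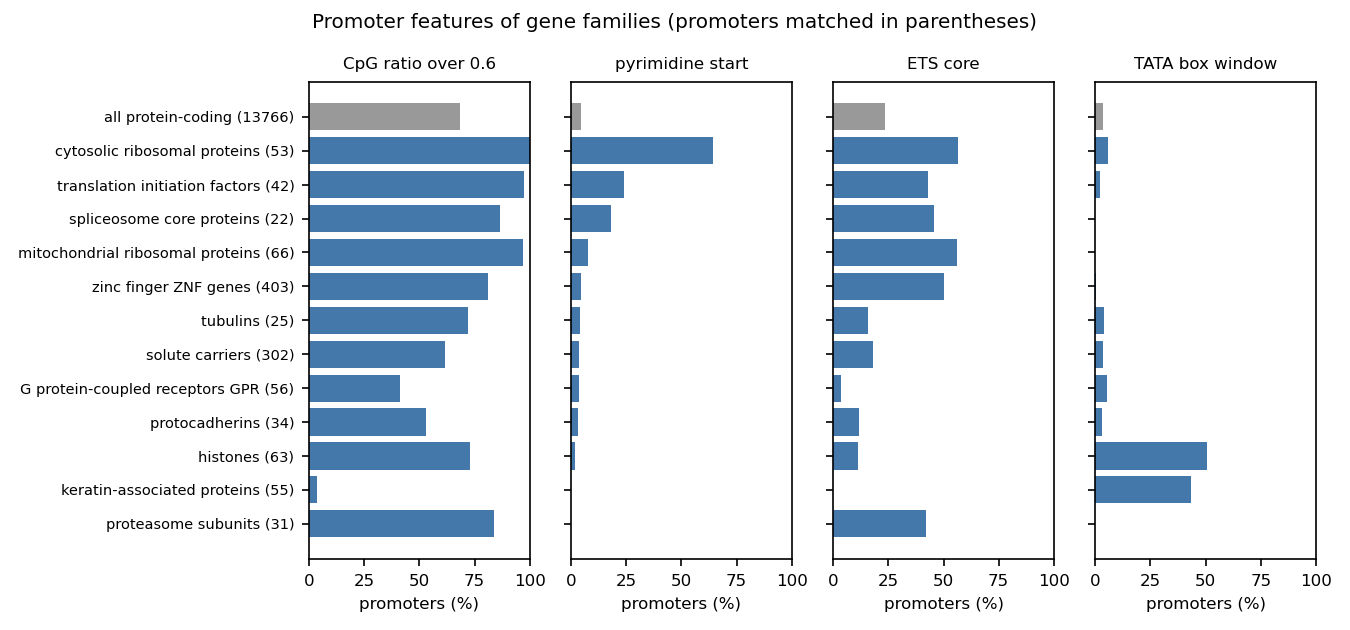
Share of promoters (x axis, percent) with a CG ratio over 0.6, a pyrimidine start, the ETS core or the TATA letters, in families where at least 80% of members and at least 20 promoters were matched (y axis, number of promoters in parentheses; all protein-coding genes in grey). The pyrimidine start reaches 64.2% in cytosolic ribosomal proteins and the TATA letters 50.8% in histones.

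No gene was called different between the control doses. In a limma fit over all 10 arrays, 0 of 18404 genes (0.0%) passed a Benjamini-Hochberg adjusted p of 0.05, and the smallest adjusted p was 0.9997. An unadjusted p under 0.05 was reached by 692 genes (3.76%), 355 of them higher and 337 lower at 100 nM. Without replicate 1 of the 10 nM control this count was 1808 and the smallest adjusted p 0.112, with the replicate number as a block it was 1214, and 0 genes were called in either case. The smallest p that an exact permutation test of 2 against 2 arrays allows is 0.333, and the limma test draws on the spread pooled over all groups.

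The data bound most differences closely. The 95% interval of the difference lay within 1.5-fold for 17960 genes (97.6%) and within 2-fold for 18381 (99.9%). The middle 95% of log2 differences ran from -0.18 to 0.22, and the median was -0.005. An estimate of 1.5-fold or more was found for 15 genes (0.0815%), and only 1 of these lay above the median level. That gene, KIF27, a kinesin named after its values were seen, read 7.48 and 7.57 at 10 nM and 8.21 and 8.19 at 100 nM. The median absolute difference between doses was 0.032 in the brightest quartile of genes and 0.079 in the dimmest. Between replicates it was 0.068 and 0.148 at 10 nM and 0.045 and 0.125 at 100 nM. A difference of means of 2 arrays is smaller than one of single arrays by construction, so only the quartiles are compared here: dim genes differed more, both within and between doses.

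The largest estimate was that of SSTR5-AS1, an antisense transcript at a somatostatin receptor gene. It read 5.15 and 5.30 at 10 nM and 6.65 and 6.85 at 100 nM, so the doses did not overlap. The log2 difference was 1.52 (SE 0.302, 95% interval 0.83 to 2.22) with a limma adjusted p of 0.9997. LINC00652 read 4.53 and 3.98 at 10 nM and 4.94 and 5.88 at 100 nM. PCDHA5 and TPTE2, the other two with a 2-fold estimate, differed as much within a dose, PCDHA5 with 5.26 and 3.52 at 100 nM and TPTE2 with 4.79 and 2.71 at 10 nM.

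The smallest unadjusted p values belonged mostly to dim genes, and none was called (adjusted p 0.9997 each). On the higher side stood DGCR6, at 7.72 and 7.76 against 8.12 and 8.03, as the only one above the median level. MST1 (difference 0.65), GSTA3 (0.59), TCHH (0.43), CBLN1 (0.37), HDAC9 (0.30), FRG2C (0.26) and PCDHB13 (0.26) completed the 8. On the lower side CCDC62 read 6.04 and 6.12 at 10 nM and 5.73 and 5.61 at 100 nM, with the smallest p of all, 0.000264. RGS9BP (-0.47), LOC100131943 (-0.43), LOC100287290 (-0.35), ERG (-0.33), MIR101-1 (-0.33), ABCB5 (-0.31) and HPSE (-0.22) were the others. The doses did not overlap for any of the 16, but these were picked by their small p, so this adds no evidence. The share of all genes without overlap was not counted.

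Genes that handle or sense double-stranded RNA were listed because the arrays differ in siRNA dose. The RNA interference machinery was bright, with a median at percentile 85.2 over 16 genes. Of these 0 were called, as of all 18404 genes, so this is no result about the list. AGO2, the slicer of RNA interference, read 10.00 and 10.01 at 10 nM and 9.99 and 10.02 at 100 nM, with a difference of 0.00 (95% interval -0.11 to 0.11). DICER1 read 11.22 ± 0.0176 (SD, n = 4), and XPO5, the exporter of microRNA precursors, read 10.97. AGO3 had the smallest p of the list, with 9.77 and 9.76 at 10 nM and 9.57 and 9.63 at 100 nM, and was not called.

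The 13 sensors of double-stranded RNA were unevenly bright. ADAR, the editing enzyme, and EIF2AK2, the kinase PKR, read 10.60 and 9.94, above the 84th percentile (91.6 and 84.4). RIGI read 6.72 and 7.25 at 10 nM and 6.98 and 6.86 at 100 nM, while IFIH1 at 4.88, TLR3 at 5.36, TLR7 at 4.25 and TLR8 at 4.0 lay below the reference. None of the 13 had an unadjusted p under 0.05, and all 13 intervals lay within 1.5-fold. Over all genes 3.76% had such a p and 97.6% such an interval, so the list did not stand out.

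Of 30 interferon response genes 0 were called between doses, as of all 18404 genes. Their median level was at percentile 24.8 and 14 lay above the reference, led by IFI6 at 9.54, USP18 at 9.48 and IFITM2 at 8.70. The median difference was 0.03, against -0.005 over all genes. Of the 30 intervals 29 lay within 1.5-fold, as did 97.6% over all genes. IFIT2, an interferon-induced RNA-binding protein, read 4.21 and 4.45 at 10 nM and 3.99 and 3.90 at 100 nM, the largest difference of the list (-0.38, 95% interval -0.62 to -0.14). ISG15 read 6.62 and 6.48 against 6.63 and 6.63. IFNB1 read 4.08 and 4.04 against 4.15 and 4.03.

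Stress and growth lists also had 0 called genes each, which follows from 0 calls among all 18404 genes. Heat shock and chaperone genes had a median level at percentile 96.4 and a median difference of -0.01. DNA replication and mitosis lists lay at 91.3 and 90.7, with GINS2 at 12.14 and the mitotic kinase PLK1 at 12.22 as brightest members. The p53 targets lay at 76.5, with CCNG1 at 12.64 and MDM2, the ligase that degrades p53, at 11.13. ATF4 targets lay at 89.3, and DDIT4, a stress-induced inhibitor of mTOR signalling, read 8.63 and 8.60 at 10 nM and 8.32 and 8.37 at 100 nM (difference -0.27, not called). Metallothioneins had a median difference of 0.07 and MT2A a level of 11.33.

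**Figure D4:**
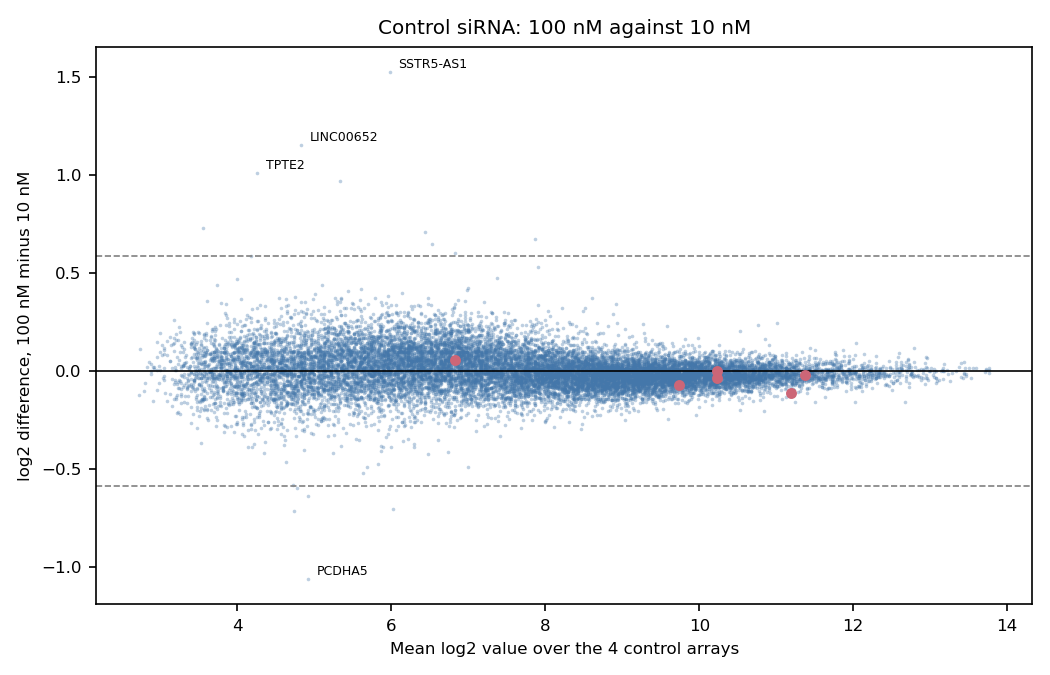
Log2 difference between the control doses, 100 nM minus 10 nM (y axis), against the mean log2 value over the 4 control arrays (x axis), 1 point per gene with the 6 HEK-293 markers in red and dashed lines at 1.5-fold. The spread narrows with signal, and 15 of 18404 genes reach 1.5-fold.

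Replicate arrays of 1 dose differed by 1.5-fold or more for 125 genes at 10 nM and 34 at 100 nM, of which 11 were shared and 10 of these went the same way. CDSN, a gene of cornified skin cells, read 8.13 and 7.14 at 10 nM and 8.85 and 7.48 at 100 nM. CES1, a carboxylesterase, read 6.67 and 5.53 at 10 nM and 6.27 and 5.26 at 100 nM. The largest gaps besides these were in TPTE2, FMN1, MIR301A and ZNF814 at 10 nM and in UBTFL1, PCDHA5 and PCDHA10 at 100 nM.

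Of the HEK-293 markers, 0 were called between the control doses, as of all 18404 genes. In at least 1 comparison with silenced cells 5 of the markers were called. The share of all genes called in at least 1 of those comparisons was not counted, so this count is no result about the markers. Between doses the differences ran from -0.11 for CA2 (95% interval -0.22 to 0.00) to 0.06 for PAX2 (-0.17 to 0.28), each with a limma adjusted p of 0.9997. In the other 6 arrays CA2 read 12.34 to 12.53, above all 4 control arrays. It was higher by 1.21 (SE 0.0484) with LOC440173 siRNA 1, by 1.10 with siRNA 2 and by 1.39 with PAXIP1-AS1 siRNA, each against the control of its dose (limma adjusted p 7.16e-06, 7.97e-06 and 2.8e-05). These contrasts called 28.8%, 30.0% and 4.62% of all genes, and both LOC440173 contrasts share their control arrays.

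NEFL read 9.07 to 9.80 in the silenced arrays, below all 4 controls. The log2 differences were -1.07 with siRNA 1, -0.51 with siRNA 2 and -1.13 with PAXIP1-AS1 siRNA (limma adjusted p 3.21e-05, 0.000819 and 0.000264). NEFM, its filament partner, read 9.52 and 9.40 with siRNA 1, 11.30 and 11.37 with siRNA 2, and 9.67 and 9.74 with PAXIP1-AS1 siRNA. The direct contrast of siRNA 2 with siRNA 1 called 37.1% of all genes, NEFM among them. The differences of -0.77, 1.11 and -0.52 were called (adjusted p 0.000101, 1.99e-05 and 0.00568), and the last call was lost without replicate 1 of the 100 nM control (adjusted p 0.0562) or of PAXIP1-AS1 siRNA (0.0638).

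EN2 read 9.08 and 8.72 with siRNA 1, a fall of 0.88 (SE 0.105, limma adjusted p 0.000637). With siRNA 2 it read 10.11 and 10.12, a difference of 0.34 whose adjusted p of 0.0427 rose to between 0.0641 and 0.161 without any single one of 8 arrays, all but both of siRNA 1. VIM fell by 0.31 with siRNA 2 (limma adjusted p 0.00334) and was not called with siRNA 1 or PAXIP1-AS1 siRNA against control. It was called in the direct contrast of siRNA 2 with siRNA 1 (-0.33, limma adjusted p 0.00171). PAX2 was called in none of these contrasts, with differences against control of 0.09, 0.04 and -0.02.

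**Figure D5:**
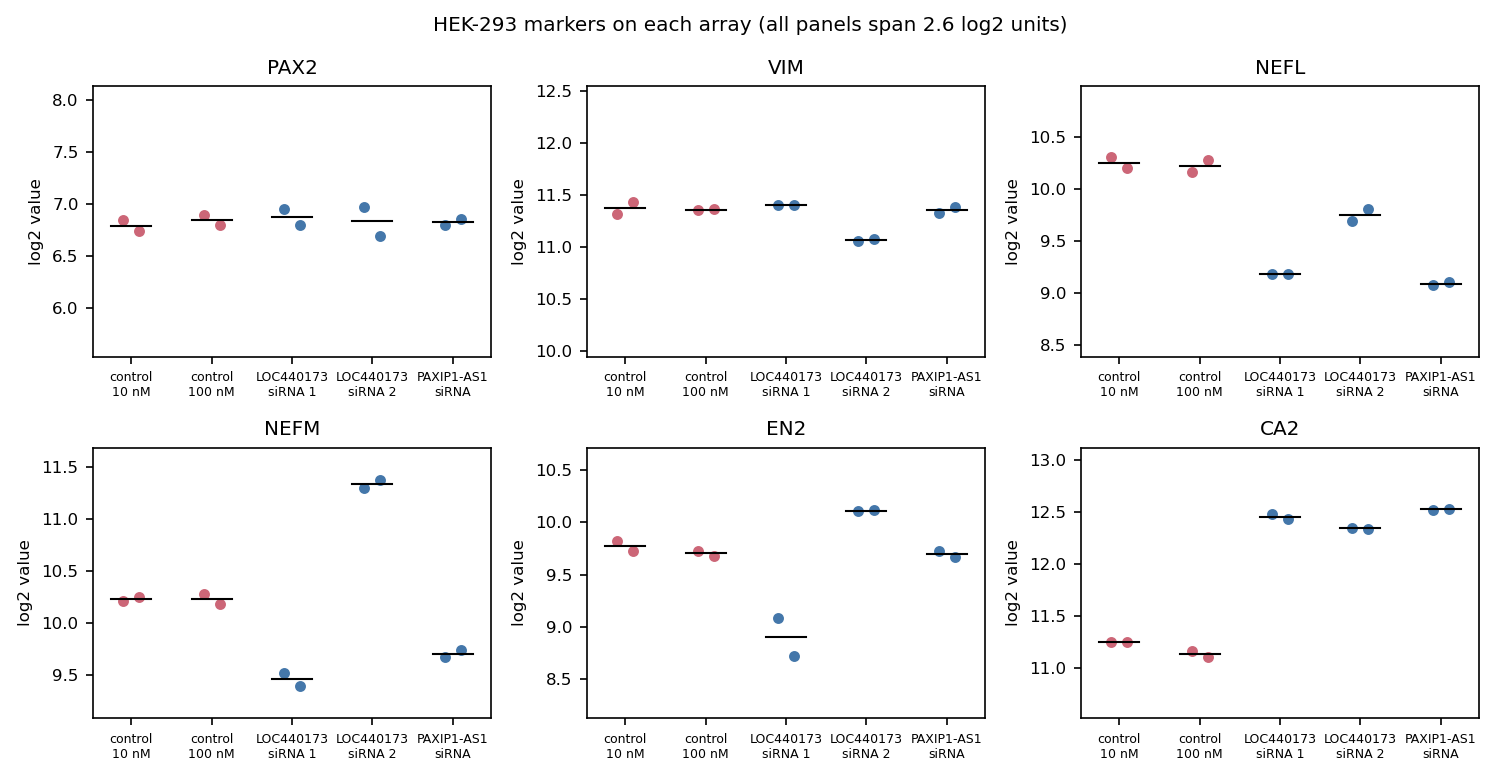
Log2 value (y axis, 2.6 units in every panel) of the 6 HEK-293 markers on each of the 10 arrays (points) by group (x axis), with the group mean as a line and the control arrays in red. CA2 is higher and NEFL lower in all 6 silenced arrays than in the 4 control arrays, while PAX2 overlaps in every group.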

How the data were processed

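The deposited values are log2 signals, made by the authors with RMA, which corrects background, applies quantile normalization and summarises probe sets, per the submitters' processing notes, which also name limma. Its version, the array definition and the genome build were not given in the sources used. Scanner intensities were not used here, so signal over background is unknown, and the number of arrays limits the precision. The medians of the arrays were 7.06 to 7.12, and the values were used as deposited.

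The platform annotation gave 1 symbol for 19158 probe sets and several for 1388, and 11775 were not listed. For 637 genes with several probe sets, the highest mean over all 10 arrays decided. A RefSeq table (GRCh38.p14) was used for names, promoters and microRNAs. Promoters and mature sequences were matched by gene; protein lengths were not used here. PAXIP1-AS1 had no listed probe set.

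All 10 arrays entered 1 limma fit (3.58.1, R 4.3.3) with a mean per group and eBayes (5 residual and 2.87 prior degrees of freedom), two-sided, adjusted by Benjamini-Hochberg over 18404 genes. The code was tested on simulated data. Levels and lists were described without a test. Named genes were some of the 20 brightest, the 6 markers, and the brightest and defining dim members of lists and families. Genes with the 8 smallest p each way between doses and the 5 largest replicate gaps per dose were named too. Further members were named after their values were seen. Alternatives covered normalization, centring, probe sets, dim genes, arrays in the fit, the variance prior, weights, a fold minimum, a replicate block, the reference and each array left out. The markers and lists were chosen with earlier results of these data known. Figures were drawn in Python 3.11.15.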

Additional observations from a re-analysis of the deposited data

Results flagged for a closer look

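For 4 of the 6 HEK-293 markers the LOC440173 siRNAs differed from each other, in a direct limma contrast of siRNA 2 minus siRNA 1 that called 37.1% of all genes. NEFM was higher by 1.88 with siRNA 2 (SE 0.0636, adjusted p 1.88e-06), with 11.30 and 11.37 against 9.52 and 9.40, on either side of the 10 nM control. EN2 was higher by 1.22 (SE 0.105, adjusted p 6.03e-05), with 10.11 and 10.12 against 9.08 and 8.72. VIM was different by -0.33 (SE 0.0534, adjusted p 0.00171), with 11.06 and 11.08 against 11.40 and 11.40. NEFL was higher by 0.57 (SE 0.0664, adjusted p 0.000298), with 9.69 and 9.80 against 9.18 and 9.18, both below the 10 nM control. These calls held in this contrast without any single array.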

How the results depend on the processing

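The dose comparison called 0 genes under all 21 alternatives. For the fold minimum this was fixed in advance, since it can only remove calls of the main fit, which had 0. Where both arrays of each group were kept and all genes tested, 399 to 1214 genes had a limma unadjusted p under 0.05. The fewest came with only the 4 control arrays. With dim genes left out the count was 393, and over all 32321 probe sets it was 1460. Those counts have other totals, so they are not compared with the rest. Replicate differences correlated across genes at 0.45 between the control doses and at 0.29 to 0.53 over all pairs of groups without siRNA 1, but at 0.07 to 0.09 for siRNA 1 with each other group. Same-numbered arrays of 4 groups thus deviated together. The labels do not say what a number marks and not every pair passed, so the pairing is a hint from the data. With the replicate number as a block, 0 genes were called (1214 at p under 0.05), and 0 with the block in the 4 control arrays alone (1212, smallest adjusted p 0.0676), an alternative chosen after seeing the data. Leaving out single arrays for the markers was added likewise.

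Near-zero dose differences changed sign: VIM ranged from -0.08 to 0.03, NEFL from -0.09 to 0.02 and NEFM from -0.05 to 0.05 when single arrays were left out, and NEFM was 0.02 after further quantile normalization. With the mean of all probe sets VIM moved to the 96.8th percentile and the ribosomal protein median to 96.7. Genes above the reference fell from 13560 to 7463 with the bitter taste receptors and 6199 with the keratin-associated proteins. The 49 family and list medians moved by at most 2.6 percentile points over 8 settings.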

Other observations

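Other compartments of the control cells were bright but have no comparison. The respiratory complex I list (34 genes) had a median at the 86.8th percentile, led by NDUFB11 at 12.44. Cholesterol synthesis (18 genes) lay at 84.6, led by the epoxidase SQLE at 11.16, and the lysosome and autophagy list (23 genes) at 82.7, led by GLA, alpha-galactosidase, at 12.15. The unfolded protein response list lay at 88.8, led by the lectin chaperone CANX at 12.96, and NRF2 targets at 80.8, led by PRDX1, a peroxide reductase, at 12.38.

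Signalling lists sat nearer the middle of the order. Wnt and Notch targets had a median at 53.6, with the Notch target HEY1 at 11.55 and RNF43 at 6.59. Matrix and TGF-beta genes had a median at 55.6, with TIMP1 at 11.89 and THBS1 at 4.74. Immediate early genes lay at 49.0, led by MYC at 11.01. Protein-coding genes had a median at 52.5, long non-coding RNAs at 25.5 and microRNA genes at 13.0.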
